A study of Homo sapiens with 6 samples.

Results

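The S100 genes described here encode small calcium-binding proteins, and the 10 members are S100A4, S100A6, S100A8, S100A9, S100A10, S100A11, S100A13, S100A16, S100B and S100P, out of 34796 genes in the table of the clones. They were found by their symbols in both deposited tables. S100A6 was chosen by its measured difference between clones, the range of its log2 ratio to Parental_1, so its values there are a description and carry no test. The other members were chosen by family name, with earlier results of these data known. The levels were measured by RNA sequencing in K562, an established cell line from a human chronic myelogenous leukemia with erythroid features. Parental cells (genotype WT, no drug given, labelled 48 hours) were sequenced as 2 libraries of 1 sample, Parental_1 and Parental_2. A sample of parental cells was exposed to 225 ng/ml doxorubicin, a chemotherapy drug of the anthracycline class that poisons topoisomerase II, for 48 h. The other 4 samples were anthracycline-tolerant clones, ATC1 to ATC4, grown in the continued presence of 225 ng/ml doxorubicin. Each came from a well seeded with 10000 cells, first given 100 ng/ml, and 4 of the 21 wells with survivors among 480 could be kept. The labels do not say that a clone grew from a single cell, so each is a surviving line represented by 1 library. The clones therefore differ from parental cells both in being selected lines and in being under drug when sampled, and these cannot be told apart.

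S100 proteins are built around a pair of EF hands, helix-loop-helix motifs that hold calcium, and most act as dimers. Calcium binding exposes a surface that grips other proteins, such as annexins, non-muscle myosin and the calcyclin-binding protein. Some members are also released and bind the receptor for advanced glycation end products (AGER) or TLR4 on other cells. In blood, S100A8 and S100A9 are abundant in neutrophils and monocytes, while S100A4, S100A6, S100A10 and S100A11 are made by many cell types. Most of the genes lie in a cluster on the long arm of chromosome 1, and 8 of the 10 members are on that chromosome.

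Of the members, 7 reached 20 counts in at least 1 of the 5 libraries of the clones table, and the same 7 passed the low-count filter of the fit. The other 3, S100A8, S100A9 and S100B, did not. Total counts were between 18420238 and 21361758 in the clones and Parental_1, and were 12537146 in Parental_2 and 14146994 in the 48 h library. Levels are given as CPM (read counts scaled to a common library size) after scaling of the libraries, and ratios to the parental library of the same table as log2 values with a prior count of 2. No replicate of any clone or of the 48 h library was sequenced, so a p-value below measures the spread between the 4 clones only. In bulk RNA, fewer cells that express a gene and less RNA per cell cannot be told apart.

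Checks of the cells came from marker lists. All 10 erythroid-type markers of K562, including GATA1 and the globins, had at least 20 counts in some library of the clones table, with summed levels of 3511 to 10040 CPM in the clones and 4816 CPM in Parental_1. ABCB1, the drug efflux pump, had 52 counts in Parental_1 and 7770 to 43531 in the clones. Of 10 granulocyte and monocyte markers, 8 reached that minimum. Their summed level was 31.4 CPM in Parental_1, 49.2 to 65.2 CPM in the clones, 47.8 CPM in Parental_2 and 120 CPM in the 48 h library. MPO, the myeloperoxidase gene, had 0 counts in Parental_1 and 319 in Parental_2, so the parental libraries differed in a myeloid marker. ELANE had at most 1 count in the 5 libraries of the clones table. Summed levels in the clones were 10.8 to 33.4 CPM for lymphoid markers and 61.4 to 95.7 CPM for epithelial and fibroblast markers, against 14.9 and 60.8 CPM in Parental_1. The epithelial and fibroblast sum held genes that went opposite ways. EPCAM had 1091 counts in Parental_1 and 869, 485, 887 and 632 in ATC1 to ATC4. COL1A1 had 33, then 456, 170, 131 and 1218, and COL1A2 had 9, then 175, 915, 150 and 72. The part of these markers in the S100 levels was not tested.

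The promoters of 3 members are shown because these genes carry the main patterns below: S100A6, which was nearly silent in 3 clones; S100A4, its nearest expressed neighbour; and S100A10, which went from 3 counts in Parental_1 to as many as 76 in a clone. Each is the 250 bases before the RefSeq start in GRCh38.p14, on the minus strand of chromosome 1 and written 5′ to 3′. The S100A6 promoter is chr1:153535992-153536241, that of S100A4 is chr1:153545807-153546056, and that of S100A10 is chr1:151993860-151994109. Capitals mark the motifs searched for and found, GGGCGG (the core of a GC box) and TATAA (part of a TATA box).
S100A6: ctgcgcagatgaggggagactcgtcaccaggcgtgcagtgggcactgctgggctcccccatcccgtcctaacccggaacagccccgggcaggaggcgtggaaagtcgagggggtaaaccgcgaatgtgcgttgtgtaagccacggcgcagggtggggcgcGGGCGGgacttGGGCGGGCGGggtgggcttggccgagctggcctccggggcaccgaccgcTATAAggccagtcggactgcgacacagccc
S100A4: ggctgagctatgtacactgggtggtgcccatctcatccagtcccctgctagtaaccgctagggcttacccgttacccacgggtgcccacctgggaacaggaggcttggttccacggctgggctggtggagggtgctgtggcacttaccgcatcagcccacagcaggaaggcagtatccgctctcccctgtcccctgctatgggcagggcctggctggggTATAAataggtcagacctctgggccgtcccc
S100A10: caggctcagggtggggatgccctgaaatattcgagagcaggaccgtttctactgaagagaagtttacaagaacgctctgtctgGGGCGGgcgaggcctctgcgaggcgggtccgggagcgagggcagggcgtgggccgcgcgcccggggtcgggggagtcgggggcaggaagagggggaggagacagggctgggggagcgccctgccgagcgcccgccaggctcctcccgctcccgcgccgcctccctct
The S100A6 promoter held 24 CG pairs, 3 GGGCGG matches (2 of which overlap) and TATAA 30 bases before the start. That of S100A4 held 7 CG pairs, no GGGCGG and TATAA 31 bases before the start. That of S100A10 held 24 CG pairs, 1 GGGCGG and no TATAA. Over 35116 RefSeq promoters cut to the same length, the median was 11 CG pairs, 42.6% held GGGCGG and 18.9% held TATAA on either strand. TGACTCA, an AP-1-type motif, was in 4.2% of all promoters and in none of the 3 shown. A match describes the letters in this window and is not evidence of a bound factor. A promoter was matched for 9 of the 10 members.

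S100A6, or calcyclin, binds the calcyclin-binding protein CACYBP and several annexins. It spans chr1:153534599-153536244 on the minus strand (GRCh38, GENCODE 29). Its 687 counts in Parental_1 compare with 4, 3 and 2 in ATC1 to ATC3 and 1264 in ATC4. These counts were 36.5 CPM in Parental_1 against 0.18, 0.15 and 0.10 CPM in ATC1 to ATC3 and 62.4 CPM in ATC4. Thus 3 clones held only a trace of the transcript, and the fourth held more than either parental library. S100A6 was lower than in Parental_1 by 205-fold in ATC1 (95% interval of the counts 79.7 to 754), by 243-fold in ATC2 (82.8 to 1181) and by 358-fold in ATC3 (98.8 to 2964). In ATC4 it was 1.71-fold higher (1.56 to 1.88). These intervals, like the others between libraries, are exact binomial ones and cover counting error only. An average over the clones, 15.7 ± 31.1 CPM (SD, n = 4), describes none of them.

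The range of the log2 ratio over the clones, 8.28 for S100A6, was the value by which it had been chosen. It ranked 4 among 15916 genes with at least 20 counts. Just above it was SCN9A, at 8.283 against 8.282 for S100A6. Next below it were H19, an imprinted noncoding RNA, at 8.18, and PTPN7, a phosphatase of blood cells, at 8.09. An antisense transcript, BX470102.1, shares 517 bases with S100A6 on the other strand and had at most 2 counts in any library. The sign in ATC4 did not depend on the parental library: against Parental_2, with 233 counts, the log2 ratios of S100A6 were -6.08, -6.22, -6.52 and 1.69 in ATC1 to ATC4.

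S100A4, or metastasin, binds the non-muscle myosin heavy chain MYH9 and is linked to cell movement. Its gene (chr1:153543613-153550136, minus strand) starts 13.9 kb from that of S100A6. It had 203 counts in Parental_1, 160, 153 and 117 in ATC1 to ATC3 and 540 in ATC4, or 10.8, 7.13, 7.66, 5.96 and 26.7 CPM. ATC4 was thus alone above Parental_1, by 2.47-fold (95% interval 2.10 to 2.92), and the other 3 clones were below it. ATC4 was the highest clone for S100A6 too, but S100A4 stayed near Parental_1 in ATC1 to ATC3, at log2 ratios of -0.59, -0.49 and -0.85 where S100A6 had -7.05, -7.20 and -7.51. Across the clones S100A4 did not pass the test against Parental_1 (log2 fold change 0.15 ± 0.87 SE, edgeR quasi-likelihood, adjusted p = 0.955), and without ATC4 the fitted sign turned (-0.65). S100A3 shares 2044 bases with S100A4 on the same strand. It had 2 or 3 counts in the libraries of the clones table.

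**Figure D1:**
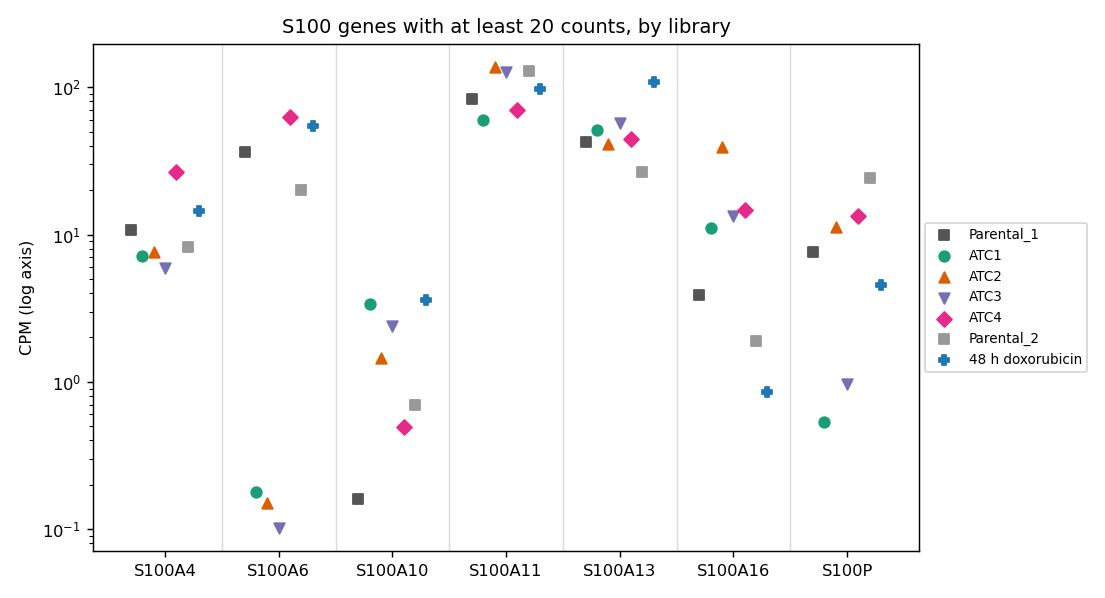
Level of the 7 S100 members with at least 20 counts, in CPM on a log axis, in each of the 7 libraries, 1 symbol per library. S100A6 lies between 0.10 and 0.18 CPM in ATC1 to ATC3 and at 62.4 CPM in ATC4, while S100A13 stays between 41.1 and 56.9 CPM in all clones.

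S100A16 and S100A10 were the members at least 2-fold above Parental_1 in all 4 clones, 2 of 7, where 6.71% of all genes were. S100A10 met the minimum of 20 counts only through ATC1 to ATC3, so it could enter this count only as higher. No member was 2-fold below it in all clones, where 1.05% of all genes were. Clone by clone, ATC1 had 2 members at least 2-fold higher (17.1% of all genes) and 2 lower (6.09%), ATC2 had 2 higher (20%) and 1 lower (10.7%), ATC3 had 2 higher (16%) and 2 lower (8.95%), and ATC4 had 3 higher (15%) and 0 lower (5.79%). The lower counts include S100A6, which was chosen for its clone difference, and nothing is read from them: without it they were 1 in ATC1 and ATC3 (S100P) and 0 in ATC2 and ATC4. S100A16, a broadly made member with an atypical EF hand (chr1:153606886-153613145, minus strand), had 73 counts in Parental_1 and 247, 788, 262 and 298 in ATC1 to ATC4. Its level was 3.88 CPM in Parental_1 and 11, 39.5, 13.4 and 14.7 CPM in the clones, so no clone overlapped the parental library and ATC2 stood above the other 3. The clone mean, 19.6 ± 13.3 CPM (SD, n = 4), was 5.06-fold the level of Parental_1. In ATC2 the level was 10.2-fold that of Parental_1 (95% interval 8.0 to 13.1).

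S100A10, also called p11, has lost calcium binding and forms a complex with annexin A2 that carries proteins to the plasma membrane. Its gene is at chr1:151982915-151994390 on the minus strand. It had 3 counts in Parental_1 and 76, 29, 47 and 10 in ATC1 to ATC4, or 0.16 CPM against 3.39, 1.45, 2.40 and 0.49. Every clone was above Parental_1, and ATC4 was the nearest to it. ATC1 was 21.2-fold above Parental_1 (95% interval 6.99 to 105), but the ATC4 ratio of 3.10 had an interval of 0.797 to 17.5 that includes no difference. Parental_2 had 8 counts, or 0.69 CPM, and against it the log2 ratios of S100A10 were 2.18, 1.02, 1.70 and -0.35, so ATC4 was no longer higher. Against Parental_2 the S100A16 ratios were 2.53, 4.36, 2.80 and 2.94.

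In the fit over the clones, no member passed the test. S100A16 had a log2 fold change of 2.35 ± 0.86 (SE, edgeR adjusted p = 0.403, from 0.0582 to 0.570 over all settings), and S100A10 had 3.56 ± 1.32 (edgeR adjusted p = 0.405). Of the 6 members tested, 2 had an unadjusted p under 0.05, S100A16 and S100A10, where 11.8% of all genes did. S100A10 was in the fit only through its counts in the clones, so nothing is read from this number. The test called 0% of 18300 genes in either direction, and 2156 had an unadjusted p under 0.05. DESeq2 called 566 genes, 3.09%, and limma-voom 0; neither called a member. The SE was worked back from the test statistic.

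S100P, first found in placenta, binds ezrin and, when released, AGER. It is on chromosome 4 (chr4:6693069-6697170), away from the cluster. Parental_1 held 144 counts and the clones, in order of number, 12, 224, 19 and 272, or 7.65, 0.53, 11.2, 0.97 and 13.4 CPM. The clones split into a low pair, ATC1 and ATC3, and a high pair, ATC2 and ATC4. S100P was 14.3-fold lower in ATC1 (95% interval 7.95 to 28.4) and 7.90-fold lower in ATC3 (4.88 to 13.5), and 1.47-fold and 1.75-fold higher in ATC2 and ATC4. Its range between clones, 4.42 on the log2 scale, was above that of 98.1% of genes, and ATC2, which lacked S100A6, kept S100P. The fitted difference was -0.22 ± 1.53 (SE, edgeR adjusted p = 0.961). Parental_2 had 282 counts, or 24.4 CPM, 1.6 above Parental_1 on the log2 scale, and all 4 clones were below that library.

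S100A11 and S100A13 differed least between clones. S100A11, or calgizzarin, binds annexin A1 and lies at chr1:152032506-152047907 on the minus strand. It had 1560 counts in Parental_1 and 1341, 2737, 2495 and 1420 in ATC1 to ATC4, or 82.9 CPM against 59.7, 137, 127 and 70.1. ATC2 and ATC3 were above the parental level and ATC1 and ATC4 below it, and the fitted difference was 0.26 ± 0.51 (SE, edgeR adjusted p = 0.856). Against Parental_2, at 129 CPM, the sign of the fitted difference turned to -0.36. An antisense transcript, AL450992.1, shares 10269 bases with S100A11 and had at most 16 counts in any library.

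S100A13, which takes part in the release of the growth factor FGF1, had 795 counts in Parental_1 and 1152, 821, 1117 and 903 in ATC1 to ATC4. The clone mean, 48.5 ± 7.04 CPM (SD, n = 4), was close to the 42.3 CPM of Parental_1. Its range between clones, 0.47 on the log2 scale, was above that of only 17.6% of genes, and its fitted difference was 0.21 ± 0.30 (SE, edgeR adjusted p = 0.795). S100A13 (chr1:153618787-153631360, minus strand) shares 3435 bases with S100A1 on the other strand. The libraries were made with a stranded kit, but the use of strand in counting, not given in the sources used here, decides which gene the reads of the shared stretch went to.

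Per kilobase of GENCODE 29 exon, the order of the members in Parental_1 was S100A11 (122 CPM per kb), S100A6 (37.6), S100A13 (19.1), S100A4 (10.5), S100P (5.98), S100A16 (2.28) and S100A10 (0.10). In ATC4 S100A6 was at 64.3 CPM per kb, still below S100A11 at 103 CPM per kb. In ATC1 S100A6 was at the foot of the order at 0.18 CPM per kb, below S100P at 0.42 and S100A10 at 2.19 CPM per kb. S100A4 (5.82 to 26 CPM per kb) and S100A16 (6.47 to 23.2) overlapped over the clones and cannot be ordered there, and S100A13 (18.6 to 25.7) overlapped both.

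S100A8 and S100A9, the calprotectin pair of neutrophils and monocytes, were near the limit of detection. S100A8 had 0 counts in Parental_1 and 2, 1, 4 and 2 in ATC1 to ATC4. S100A9 had 0 counts there and 5, 4, 7 and 6 in the clones. S100B, a protein of glial cells, had 1 count in ATC1 and 0 in the other libraries of its table. A count of 0 allows up to 3 counts in that library, and no difference was detectable for S100A8 or S100B at this depth. No fold is given for any of the 3.

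**Figure D2:**
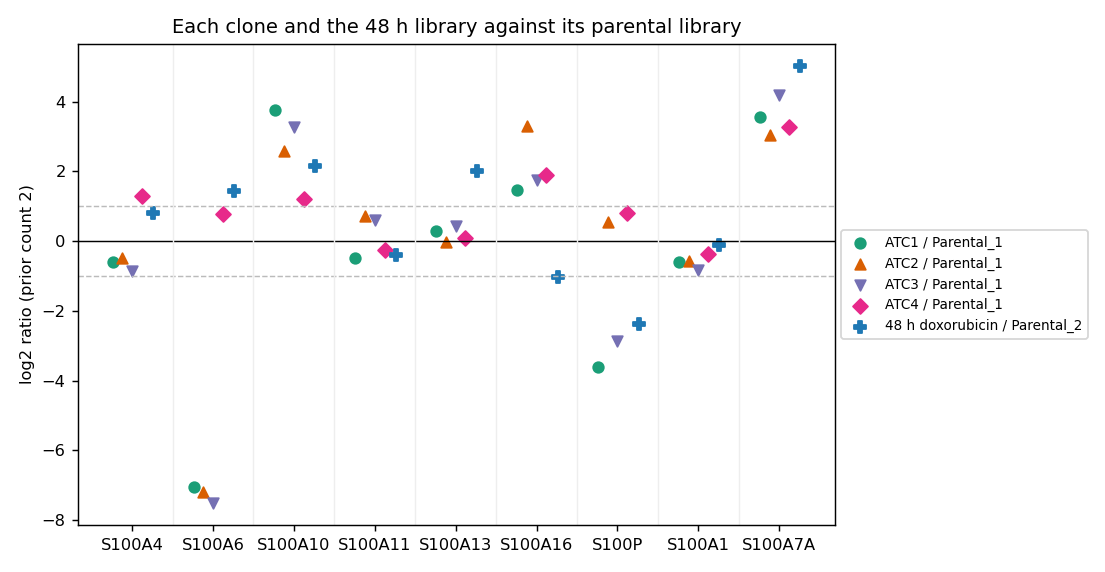
Log2 ratio of each clone to Parental_1 and of the 48 h library to Parental_2 for the 7 counted members and 2 further S100 genes, S100A1 and S100A7A; dashed lines mark 2-fold. S100A16 is above the upper line in all clones and below the lower one at 48 h, and S100A13 is between the lines in all clones and at 2.01 at 48 h.

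After 48 h of doxorubicin, 3 of the 7 members were at least 2-fold above Parental_2, where 13.5% of all genes were, and 2 were at least 2-fold below it, where 11.3% were. Those above were S100A10, S100A13 and S100A6, and those below were S100P and S100A16. S100A10 reached 20 counts only in the 48 h library and S100A16 only in Parental_2, so each could be counted in its own direction only. With 1 library on each side there is no replicate check and no test, and the intervals cover counting error only. S100A13 went from 309 to 1661 counts, or from 26.7 to 108 CPM, 4.06-fold higher (95% interval 3.59 to 4.59). No clone reached that level: S100A13 was at 41.1 to 56.9 CPM in them. S100A6 went from 233 to 839 counts, 2.72-fold higher (2.35 to 3.15), reaching 54.7 CPM, close to the level of ATC4 and far from those of ATC1 to ATC3.

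S100A10 went from 8 to 55 counts at 48 h, 5.19-fold higher (95% interval 2.46 to 12.6), to 3.59 CPM, near the highest clone. S100A4 went from 95 to 220 counts, 1.75-fold higher (1.37 to 2.25). S100P went from 282 to 70 counts, 5.34-fold lower (4.10 to 7.04). S100A16, which was higher in every clone, went the other way at 48 h, from 22 to 13 counts, 2.24-fold lower (1.08 to 4.85). S100A11 had 1496 counts in Parental_2 and 1494 at 48 h, a 1.33-fold lower level (1.23 to 1.43). Whether the 48 h and the clone differences differ from each other was not tested, since each has its own parental library.

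The parental libraries differed from each other by up to the size of several of these changes. Parental_2 was above Parental_1 by 1.52 for S100A10 and 1.6 for S100P on the log2 scale, and below it by log2 ratios of -0.45 for S100A4, -0.92 for S100A6, -0.72 for S100A13 and -1.05 for S100A16. S100A11 was at 0.58. Of the 6 members with at least 20 counts in either library, 2 differed by 2-fold or more, where 11.3% of all genes did: S100P was higher in Parental_2 (5.48% of all genes) and S100A16 lower (5.85%). With Parental_1 in place of Parental_2, the 48 h log2 ratios were 3.79 for S100A10, 1.36 for S100A13, 0.59 for S100A6, 0.41 for S100A4, 0.24 for S100A11, -0.73 for S100P and -2.06 for S100A16. Thus S100A10 and S100A13 stayed at least 2-fold higher and S100A16 at least 2-fold lower with either library, while S100A16 against Parental_2 was short of 2-fold with library totals (-0.83) or a prior count of 5 (-0.90), and S100A6 and S100P did not reach 2-fold with Parental_1.

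Another 10 S100 genes were found in a table, and 2 of them reached 20 counts in the clones or Parental_1. The gene S100A7A, or koebnerisin, is a gene of inflamed skin at chr1:153416524-153423225. It had 1 count in Parental_1 and 38, 23, 53 and 28 in ATC1 to ATC4, and 0 in Parental_2 against 72 at 48 h, which is at least 18.1-fold higher with a floor of 3 counts. It was thus close to absent in both parental libraries and low but counted in every library under drug. In the fit over the clones its log2 fold change was 4.88 ± 1.08 (SE, edgeR adjusted p = 0.285). With both parental libraries as the control it was 5.51 and passed the test (edgeR adjusted p = 0.0313), although these are 2 libraries of 1 sample. S100A7A was in either fit only through its counts in the clones. It could therefore come out only as higher, and nothing is read from its passing. The setting with both parental libraries called 2.06% of all genes and no member. S100A1, a calcium sensor of heart muscle, had 136 counts in Parental_1 and 106, 97, 79 and 114 in the clones, and its fitted difference of -0.58 ± 0.45 did not pass (SE, edgeR adjusted p = 0.609). The other genes, S100A2, S100A3, S100A5, S100A7, S100A12, S100A14, S100G and S100Z, had at most 11 counts in any library.

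The neighbours of S100A6 were examined to see whether they shared its pattern. Within 500 kb on either side of its start, 46 other genes had a row and 21 of them had at least 20 counts. None of the 21 was at least 2-fold below Parental_1 in ATC1, ATC2 and ATC3 together, and 2.36% of all genes were. SPRR2D, PRR9, PGLYRP4 and S100A7A reached 20 counts only in clones, so they could not be counted as lower there. The median log2 ratio of the 21 genes was -0.02, -0.04, 0.24 and 0.08 in ATC1 to ATC4. Among them 7 had their highest ratio in ATC4, S100A4 included, a share to set beside the 26.7% of all genes that did. The nearest on the far side of S100A4 were S100A16, 76.9 kb away, and S100A1, 91.7 kb away.

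On the other side of S100A6 the 3 nearest counted genes are skin and innate immunity genes of the epidermal differentiation complex, S100A7A, PGLYRP4 and PRR9. PGLYRP4, a peptidoglycan recognition protein, had 3 counts in Parental_1 and 65, 29, 13 and 44 in ATC1 to ATC4, and went from 3 to 406 counts at 48 h. PRR9 had 14 counts in Parental_1, 150, 284 and 65 in ATC1 to ATC3 and 11 in ATC4, so ATC4 was its lowest clone. Of the 21 neighbours, 3 (S100A7A, PGLYRP4 and S100A16) exceeded Parental_1 by 2-fold or more in every clone, and none was below it by as much in every clone.

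**Figure D3:**
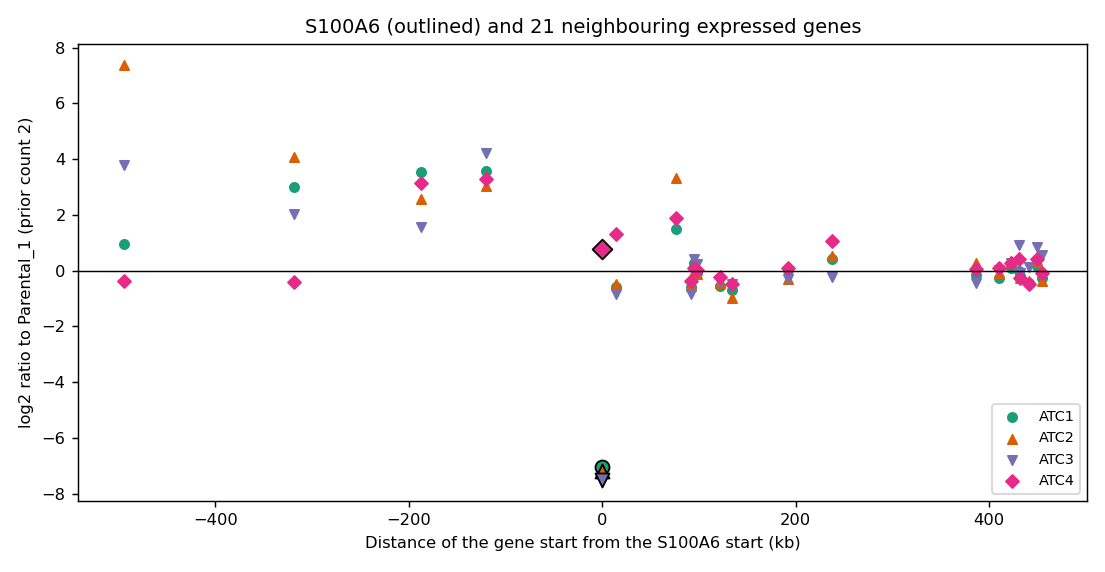
Log2 ratio of each clone to Parental_1 for S100A6 (outlined) and its 21 neighbours with at least 20 counts, against the distance in kb of each gene's start from that of S100A6. S100A6 is below -7 in 3 clones, and no neighbour is at least 2-fold lower in the same 3.

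The genes most like S100A6 over the 4 clones, by Euclidean distance of the log2 ratios to Parental_1 among 15916 genes, were GPR125, UGT8, ITPRIPL1, CECR2 and LINC01608, all on other chromosomes. They were picked for this likeness, so their clone values are a description. GPR125, an adhesion receptor now named ADGRA3 (distance 0.81), had 329 counts in Parental_1, 1 in each of ATC1 to ATC3 and 466 in ATC4. UGT8, which makes galactosylceramide (distance 1.12), had 334 counts in Parental_1, then 3, 1, 0 and 368. ITPRIPL1, a membrane protein (distance 1.56), had 168 counts, then 0, 0, 0 and 175. Each of these 3 was thus within 2-fold of Parental_1 in ATC4 and at or near 0 in the rest. GPR125 differed between the parental libraries as well, with 17.5 CPM in Parental_1 and 6.74 CPM in Parental_2 against 23.0 CPM in ATC4.

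CECR2, a bromodomain protein of chromatin remodelling complexes (distance 1.66), had 324 counts in Parental_1 and 4, 1, 2 and 408 in ATC1 to ATC4. LINC01608, a noncoding RNA (distance 3.11), had 115, then 2, 1, 0 and 189. At 48 h S100A6 had a log2 ratio of 1.44, and those of the 5 genes were all lower, -0.12 for GPR125, -0.92 for UGT8, 0.06 for ITPRIPL1, -1.74 for CECR2 and -0.67 for LINC01608. The Pearson correlation of S100A4 with S100A6 over the clones and Parental_1, 5 libraries, was 0.867 and ranked 644. Such a correlation over 5 libraries rests mainly on ATC4.

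**Figure D4:**
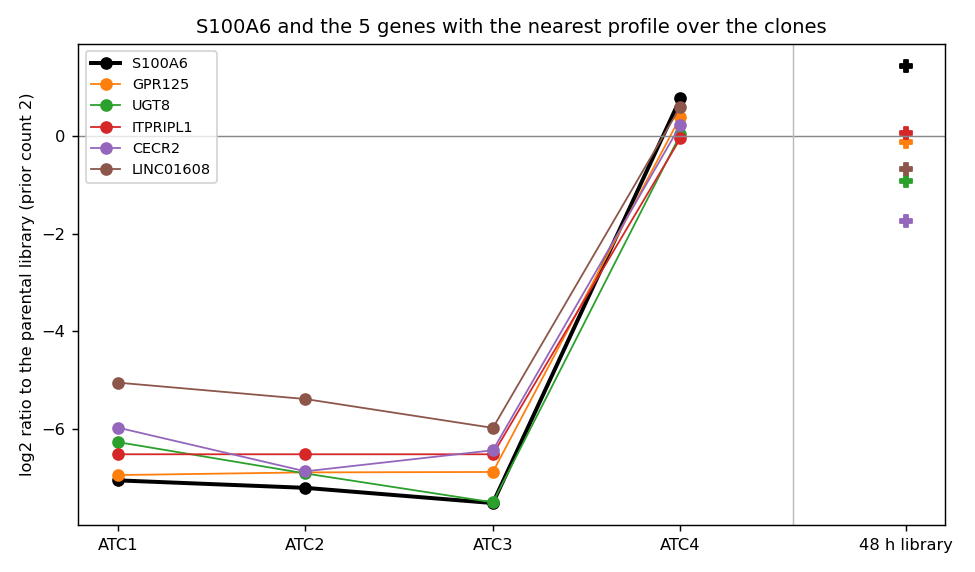
Log2 ratio to Parental_1 in each clone (lines join the clones of 1 gene and do not stand for an order) and to Parental_2 at 48 h (crosses) for S100A6 and the 5 genes nearest to it over the clones. All 6 are below -5 in ATC1 to ATC3 and near 0 or above in ATC4, and S100A6 is the highest at 48 h.

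Binding partners and receptors of the S100 proteins formed a list of 20 genes, 19 of them with at least 20 counts. Their median log2 ratios were -0.49, -0.42, -0.24 and -0.20 in ATC1 to ATC4, where those of all genes were -0.01, 0.03, -0.00 and -0.02. No partner passed the edgeR test. By log2 ratios with the prior count, 1 partner, TLR4, was 2-fold or more above Parental_1 in all 4 clones, where 6.71% of all genes were. Another 1, CD36, was below it by as much, where 1.05% of all genes were. TLR4 reached 20 counts only in ATC2 and CD36 only in Parental_1, so each could be counted in its own direction only. Against a floor of 3 counts the TLR4 excess was shown in ATC2 and ATC4 alone, at least 30.2-fold and at least 4.33-fold, and was below 2-fold in ATC1 and ATC3. TLR4, a receptor for S100A8 and S100A9, had 0 counts in Parental_1 and 7, 96, 3 and 14 in ATC1 to ATC4, so the count was highest in ATC2. CD36, a fatty acid receptor that also takes up S100A8 and S100A9 complexes, had 30 counts in Parental_1 and 6, 0, 6 and 4 in the clones. These clone counts are near the floor. Parental_2 had 9 counts of CD36, a log2 ratio of -0.995 to Parental_1, so the parental libraries differed in it as well.

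CACYBP and MYH9 did not have the pattern of S100A6 and S100A4 over the clones. CACYBP, named for binding S100A6, had 5011 counts in Parental_1 and 2318, 2169, 3539 and 3034 in ATC1 to ATC4, with log2 ratios of -1.37, -1.29, -0.56 and -0.83. It was below Parental_1 in ATC4 too, where S100A6 was high. MYH9, bound by S100A4, had log2 ratios of 0.78, 1.65, 0.73 and 0.12, so it was lowest in ATC4. AHNAK, a giant scaffold protein bound by the S100A10 and annexin A2 complex, had log2 ratios of -0.92, -1.64, -2.11 and -0.52 in the clones and 1.57 at 48 h. SYT1, a calcium sensor of vesicle release in the complex that exports FGF1 with S100A13, had 5 counts in Parental_1 and 1, 60, 1 and 135 in the clones, the split of ATC1 and ATC3 from ATC2 and ATC4 that S100P also had. Parental_2 had 28 counts of SYT1, a log2 ratio of 2.70 to Parental_1. At 2.42 CPM it was near ATC2 at 3.01 CPM, so the ATC2 difference depended on the parental library.

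The annexins and AGER were picked after their values were seen. ANXA2, the partner of S100A10, had 6435 counts in Parental_1 and 6246, 2789, 3690 and 4342 in ATC1 to ATC4, so no clone was above Parental_1, and the highest was ATC1, as for S100A10. At 48 h ANXA2 was 1.62-fold above Parental_2 (95% interval 1.54 to 1.70), but its log2 ratio to Parental_1 was -0.05. ANXA1, bound by S100A11, had log2 ratios of -1.31, -0.51, -0.58 and -1.22 in the clones, with the same pair of clones lowest as for S100A11, and -1.35 at 48 h. ANXA6, bound by S100A6, had 432 counts in Parental_1, 303, 257 and 409 in ATC1 to ATC3 and 979 in ATC4. Its log2 ratio at 48 h was 1.76, so ANXA6 was higher where S100A6 was higher. ANXA11, also on the list of partners, did not share this. Its log2 ratios were -0.08, 0.14, -0.01 and -0.20 in ATC1 to ATC4 and -0.20 at 48 h. AGER had 175 counts in Parental_1 and 148 to 220 in the clones. At 48 h, 18 partners were counted, with a median of -0.02 where that of all genes was -0.09. Of them 3 were at least 2-fold higher, CD36, ANXA6 and AHNAK, where 13.5% of all genes were. Another 1, ANXA1, was at least 2-fold lower, where 11.3% of all genes were. CD36, with 9 counts in Parental_2 and 28 at 48 h, reached the count minimum only in the 48 h library. It could therefore be counted as higher only. With Parental_1 in place of Parental_2, the 48 h log2 ratios were 2.30 for ANXA6, 0.83 for AHNAK, 0.19 for CD36 and -0.13 for ANXA1. Thus ANXA6 alone of these stayed past 2-fold with either library.

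Other EF-hand genes, 28 in the list and 26 with at least 20 counts, were compared because they carry the same motif. None was 2-fold from Parental_1 in the same direction in all clones, where 6.71% of all genes were higher and 1.05% lower. The medians of the 26 genes were -0.19, -0.08, -0.07 and -0.45. CALB1, the calcium buffer calbindin, had 543 counts in Parental_1 and 2713, 522, 570 and 6728 in ATC1 to ATC4, so it was higher in ATC1 and ATC4 alone. HPCAL1, a neuronal calcium sensor, had log2 ratios of 0.59, 1.01, 0.75 and -0.04, and CAPN2, the large calpain subunit, 0.27, 0.53, 1.22 and -0.02. The lowest were RCN2, a calcium-binding protein of the endoplasmic reticulum, at -0.71, -1.04, -0.72 and -0.64, CIB1, an integrin-binding protein, and CETN3, a centrin of centrosomes. At 48 h 25 were counted, with a median of -0.23. MYL6 and CALB1 were at least 2-fold higher, where 13.5% of all genes were. RCN1 and RCN2 were at least 2-fold lower, where 11.3% of all genes were. With Parental_1 in place of Parental_2, the 48 h log2 ratio was 1.75 for CALB1 and -0.87 for RCN2. It was not worked out for MYL6 and RCN1.

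**Figure D5:**
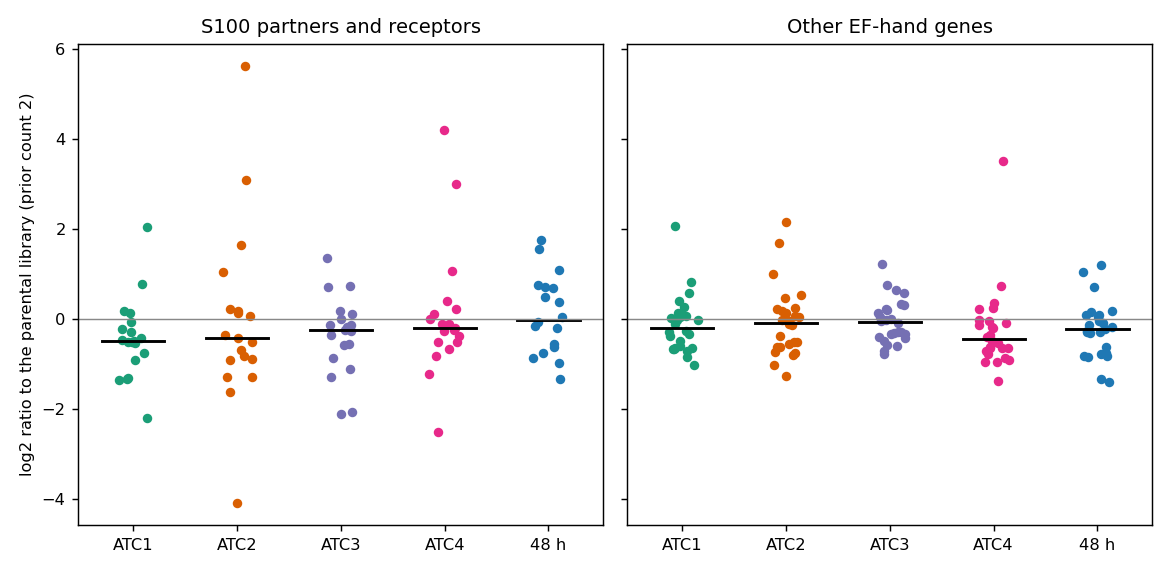
Log2 ratio to the parental library of the same table for each counted S100 partner or receptor (left) and each other EF-hand gene (right) in the 4 clones and at 48 h; 1 point is 1 gene, points are spread sideways only to be seen, and bars are medians. The partner medians are -0.49 to -0.20 in the clones and the EF-hand medians -0.45 to -0.07.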

How the data were processed

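RNA sequencing gave the expression values of 6 samples (7 libraries). The authors deposited 2 tables of whole read counts per gene, to which they had added 1, with pairs at no read left missing, as the values show. The 1 was subtracted and missing was read as 0. The authors' deposited log2 ratios are of each pair of values less that of their sums, were checked and were not used. Per the labels' protocols the libraries were stranded mRNA ones. Aligner, counting program and use of strand were not given in the sources used here. Per the submitters' processing notes the build named is GRCh38, but 577 of 32415 gene starts in the tables lie within 10 bases of GENCODE 29, so positions and exon lengths came from GENCODE 29 by Ensembl ID. Promoters came from RefSeq.

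The 4 clones were set against Parental_1 with edgeR 4.0.16 in R 4.3.3 (quasi-likelihood, TMM, its filter on low counts, Benjamini-Hochberg adjustment over 18300 genes at 0.05, 3 residual degrees of freedom), with members read from the whole fit and S100A6 not tested. Parental_1 alone stood for the parental cells and was assumed to vary as the clones do. Code was tested on simulated data. Between Parental_2 and the 48 h library no test was made. Log2 ratios used a prior count of 2, for genes reaching 20 counts in the highest library, and intervals are exact binomial at 95%. Ratios across tables used the 30341 genes in both. Named were all members, the other S100 genes, the 3 highest and 3 lowest of each list by mean log2 ratio over the clones, the 3 nearest counted neighbours on either side of S100A6, the 5 genes most like S100A6 and ABCB1. Others are named where a count of 5 or fewer includes them or where the text says so. The members and lists were chosen with earlier results of these data known. Alternatives were DESeq2 1.42.0, limma-voom (limma 3.58.1), other scalings, filters and prior counts, each clone left out, and the other or both parental libraries.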

Additional observations from a re-analysis of the deposited data

Results flagged for a closer look

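A single clone stood apart from the other 3 in 4 of 23 named genes, by the gap to the nearest clone as a share of the whole range of CPM. The limit marks about 1 in 20 by chance where values are normally distributed. The share of all genes passing it is not given, and several of the 23 were named for high or low clone ratios. No excess is therefore read from the 4. S100A6, the genes picked for likeness to it and those picked after their values were seen were left out. ATC4 was the high clone for S100A4 (0.918), ATC2 for S100A16 (0.870) and TLR4 (0.884), and ATC3 for CIB1 (0.833).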

How the results depend on the processing

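The number of genes called over the clones was 0 with edgeR and depended on the setting. It was 566 with DESeq2 (464 higher, 102 lower), 19 with every gene of at least 1 count kept (11 higher, 8 lower), 345 with both parental libraries (248 higher, 97 lower) and 0 to 84 with a clone left out, the 84 (49 higher, 35 lower) being without ATC4. No S100 member tested was called in any of these settings. Library totals without TMM shifted the median fold change over all genes from 0.11 to 0.29 on the log2 scale and turned the fitted S100P value to 0.011. The fitted value of S100P also turned without ATC1 (0.16) or without ATC3 (0.14), within a leave-one-out range of -0.88 to 0.16, that of S100A4 turned with limma-voom (-0.15) or without ATC4 (-0.65, range 0.37 to -0.65), and that of S100A11 with Parental_2 (-0.36) or both parental libraries (-0.077). The fitted S100A6 value was -1.21, -7.92 without ATC4 and -5.66 with limma-voom. Of the members 2-fold from Parental_1 in all clones, 2 in number, S100A16 alone was left with a prior count of 5 (1 member) or with Parental_2 (1 member), and with a clone left out the count was 2 to 3, with S100A6 added without ATC4. At 48 h 5 members were past 2-fold, and 3 with Parental_1, where S100A11 turned to 0.24. With library totals 4 were higher and 1 lower, S100A4 being added (1.02) and S100A16 lost (-0.83), and a prior count of 5 left 4, without S100A16 (-0.90). Among the 5 genes most like S100A6, 1 was also among the first 5 by Pearson correlation. The cause of these changes was not tested. No paired analysis was possible because the parental and 48 h groups hold 1 sample each and share no more than 1 replicate number with the clones. Depth limits S100A8, S100A9, S100B and S100A10 in Parental_1, which had 0 to 3 counts.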

Other observations

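Genes with the outline of S100A6 were counted for every clone, with limits chosen after its values were seen. At least 4-fold lower than Parental_1 in 3 clones and within 2-fold of it in the fourth were 43 of 15916 genes where ATC4 was the fourth, and 3, 10 and 0 genes where ATC1, ATC2 or ATC3 was. In the other direction, at least 4-fold higher in 3 clones and within 2-fold in the fourth, there were 109 genes for ATC4 and 9, 7 and 27 for ATC1, ATC2 and ATC3.

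The summed level of megakaryocyte markers was lowest among the clones in ATC4, a sum carried mainly by the integrins ITGA2B and ITGB3. It was 38.0 CPM in Parental_1, 368, 1194 and 854 CPM in ATC1 to ATC3 and 208 CPM in ATC4. GP1BA, a platelet receptor, did not share this, with 139 counts in ATC4 and 135 in ATC1. The chemokine gene PPBP of platelets was at 0 counts in ATC4 and in Parental_1, against 50, 919 and 1229 in the other clones. The relation of these markers to S100A6 was not tested. SRI, or sorcin, picked after its values were seen, is an EF-hand gene that lies near ABCB1 on chromosome 7 and had 1434 counts in Parental_1 and 837, 4945, 1647 and 2560 in ATC1 to ATC4.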
